A study of Mus musculus with 8 samples.

Results

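DNA replication and S phase genes were followed in Tregs differentiated from naïve CD4+ T cells of mice labelled Alox15-/- or wild type (WT). A list of 39 genes for origin licensing, helicase activation, DNA synthesis, nucleotide supply and S phase entry was taken by gene symbol, and all 39 were found among the 28239 rows of the count table. Each of the 39 reached at least 2 CPM (counts scaled to a library total of 1e6) in all 8 libraries, so the expression filter of at least 2 CPM in at least 4 libraries removed none of them. The cells came from spleens of C57BL/6 mice, 4 labelled Alox15-/- (deficient in a lipoxygenase gene, with no conditional allele or Cre named) and 4 labelled wild type. By the study's methods the mice were female and male, 10 to 12 weeks old, and the groups came from different suppliers, so supplier and genotype cannot be told apart. Both groups were purified by negative selection and kept for 2 days with activation beads against CD3 and CD28, with TGF-β at 5 ng/ml and with IL-2 at 100 U/ml by the series' design text and the study's methods. The extraction text of the labels speaks instead of spleens kept in lysis buffer before RNA was taken from the Tregs, so the cultured material is as the sources state it and was not settled from the counts. RNA was profiled by MACE-seq, which reads transcripts near their 3′ ends, and each library gives 1 value per gene. The comparison asks whether loss of Alox15 goes with a wider change in the transcriptome.

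A T cell stimulated through its receptor leaves rest, grows and copies its DNA within days. Before S phase the origin recognition complex, Cdc6 and Cdt1 load the Mcm2 to Mcm7 helicase onto origins. Cdc45 and the GINS complex then turn the helicase on, and primase, the replicative polymerases, the sliding clamp and its loader carry out synthesis. Many of these genes are transcribed together by E2F factors once cyclin E and other cyclins with their kinases inactivate the retinoblastoma proteins, whereas genes of G2 and mitosis rise later and are controlled largely through CHR elements.

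E2F matches in the promoters are shown first because E2F factors are the best known shared regulators of these genes. RefSeq promoters (GRCm38.p6, 250 bases before to 50 after each start) were found for 32 of the 39 genes, the others being Mcm4, Gins1, Gins2, Gins4, Pole, Rfc2 and Ccne2. The letters TTTCCCGC, TTTGGCGC, TTTCGCGC or TTTGCCGC were searched on both strands, and matches were allowed to overlap. At least 1 match was present for 13 of the 32 genes (40.6%), against 4.90% of 8629 tested genes with a promoter and 2.26% of all 32851 promoters, and for 14 of 44 further replication genes and 1 of 26 G2/M genes. The CHR letters TTTGAA were present for 4 of the 32 genes (12.5%) and for 18 of 26 G2/M genes, against 14.7% of the tested genes and 17.9% of all promoters. With the bases before the start only, CHR was present for 8 of the 26 G2/M genes. CCAAT was present for 22 of the 32 (68.8%), against 43.4% of the tested genes and 37.4% of all promoters, and for 21 of the 26 G2/M genes. A match describes letters only and shows no binding. An E2F match before the start was held by 9 genes. Stretches are shown for 5 of them, the helicase subunits and the licensing and S phase control genes among the genes chosen for full values, and the others are Orc1, Gins3, Pola1 and Rfc3. They are printed with the matched letters in capitals, 5′ to 3′ on the strand of the gene.

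Mcm6, minus strand, chr1:128359734-128359826, upstream of the gene: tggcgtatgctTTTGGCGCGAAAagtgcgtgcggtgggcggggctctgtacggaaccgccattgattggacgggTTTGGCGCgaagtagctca
Mcm5, plus strand, chr8:75109345-75109378, upstream of the gene: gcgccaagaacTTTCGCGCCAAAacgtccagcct
Mcm7, minus strand, chr5:138172030-138172059, overlapping an exon of the gene in GENCODE: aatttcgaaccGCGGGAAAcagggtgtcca
Cdc6, plus strand, chr11:98908002-98908031, in an intron of the gene in GENCODE: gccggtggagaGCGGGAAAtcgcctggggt
Dtl, minus strand, chr1:191575545-191575563, upstream of the gene: cgtgacgtcagTTTGGCGC

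Mcm6 held 3 matches, of which 2 overlapped on opposite strands, and Mcm5 held 2 that overlapped in the same way. The 13 genes with a match had a median log2 fold change of -0.17 between the groups, against -0.076 for the 19 without one. This difference was not tested, and neither median was read from the fit without WT replicate 3. Of the genes with a match, that fit put Mcm6 at -0.11, Mcm7 at -0.10, Mcm5 at -0.087 and Mcm3 at -0.076. It put Cdt1 at -0.075, Dtl at -0.039, Lig1 at -0.026 and Cdc6 at 0.079. Genes without a match rose in it too, such as Pola2 to -0.14 and Mcm2 to 0.0036.

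**Figure D1:**
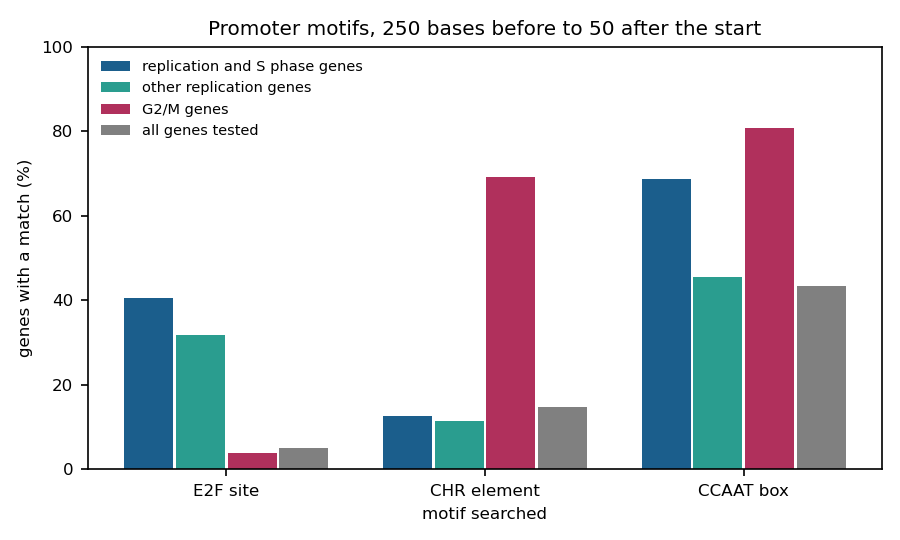
Share of genes (%) with at least 1 match to each motif between 250 bases before and 50 after the start, as bars for the replication and S phase genes (32 with a promoter), other replication genes (44), G2/M genes (26) and all tested genes (8629). E2F matches are more frequent in the replication genes (40.6%, and 14 of 44 for the other replication genes) than in all tested genes (4.90%), and CHR matches are present for 18 of 26 G2/M genes (8 of 26 with the bases before the start only, not plotted).

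Total counts per library lay between 3723151 and 6952596 under the Alox15-/- label and between 4810125 and 9538962 under WT. Alox15 itself was at 70.2, 68.8, 63.4 and 65.0 CPM in the libraries labelled Alox15-/- and at 1.87, 2.55, 7.73 and 8.98 CPM in WT. The log2 fold change, given throughout as Alox15-/- over WT with its standard error (SE), was 3.65 (SE 0.299, adjusted p = 1.08e-05 by edgeR's quasi-likelihood test with Benjamini–Hochberg adjustment). The targeted transcript was thus higher in the libraries labelled as lacking it. The position of the deletion was not given in the sources used here. Whether the counted 3′ end lies outside it is therefore unknown, and the level does not check the label. Groups are named by their labels as given. An exchange of labels was not tested and would turn each direction printed here. T cell markers were present in every library, their summed level lying between 2521 and 2983 CPM, and the level of Foxp3 was 93.0 ± 17.0 CPM under the Alox15-/- label and 124 ± 47.2 CPM in WT (mean ± SD, n = 4 each). None of 8 T cell and 6 Treg markers passed the adjusted threshold. The groups did not overlap for Cd4, which was lower (log2 fold change -0.32, edgeR adjusted p = 0.358). Nor did they for Cd3g, which was higher (0.31, edgeR adjusted p = 0.294), beside 5.25% of all genes tested without overlap. Markers of other cells moved with the label. The summed erythroid markers ranged from 924 to 3495 CPM under the Alox15-/- label against 54.4 to 141 CPM in WT, with 5 of 9 genes passing the adjusted threshold as higher (6 tested). The mast cell and basophil markers ranged from 140.1 to 356 CPM against 57.6 to 82.5 CPM (7 of 8 genes higher), the eosinophil markers from 20.2 to 72.1 CPM against 1.25 to 6.68 CPM (2 of 5 higher, 2 tested), the myeloid markers from 48.8 to 369.8 CPM against 12.1 to 21.3 CPM (5 of 10 higher, 7 tested), and the NK and γδ T cell markers from 93.6 to 171 CPM against 31.5 to 54.3 CPM (5 of 9 higher, 6 tested). The B cell markers ranged from 5.53 to 7.52 CPM against 8.27 to 19.2 CPM, with 1 of 5 genes passing as lower (2 tested), and the CD8 markers from 12.02 to 21.8 CPM against 21.3 to 31.6 CPM, with 0 of 2 passing. Some of the called markers passed the expression filter through 1 group only. Ms4a1, the B cell gene called, reached 2 CPM only in the 4 WT libraries. Alas2, Ms4a2, Cma1, Prss34 and S100a9 reached it only in the 4 libraries labelled Alox15-/-. These genes were tested because 1 group was high, so their calls add no support. None of the listed markers was at 0 in all 8 libraries. The part of these cells in the replication values was not tested.

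None of the 39 replication and S phase genes differed between the groups at an adjusted p under 0.05 in edgeR's quasi-likelihood test fitted over 12700 genes. The background was 158 of 12700 genes (1.24%), 1.05% being higher and 0.197% lower under the Alox15-/- label. DESeq2, limma-voom and edgeR's exact, likelihood-ratio and robust tests called 0 of the 39 as well. At an unadjusted p under 0.05 there were 2 genes, both lower, which is 5.13% of the list against 7.84% of all genes tested (4.46% higher and 3.38% lower). No gene of the list had groups that did not overlap, against 5.25% of all genes tested (2.75% higher and 2.5% lower). The fitted values nevertheless lay mostly on one side, with 35 of 39 below 0 (89.7%) against 51.8% of all genes tested, and a median log2 fold change of -0.10 against -0.0073. Leaving out 1 library at a time gave counts from 22 to 39. Without WT replicate 3, 22 of 39 were below 0 and the median was -0.019, and without WT replicate 4, 39 of 39 were below 0 and the median was -0.18. The counts come from bulk cultures. The share of cells in S phase, the RNA per such cell and the share of other cells cannot be told apart in these values, and none was tested.

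The size of a change that the data still allow was read from the 95% intervals. For all 39 genes the interval lay within 1.5-fold in either direction, as it did for 65.9% of all genes tested (90.6% within 2-fold), and leaving out 1 library at a time left 34 to 37 of the 39 within that bound and all 39 within 2-fold. The SE of the log2 fold change ranged from 0.0991 for Rpa1 to 0.217 for Gins3.

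**Figure D2:**
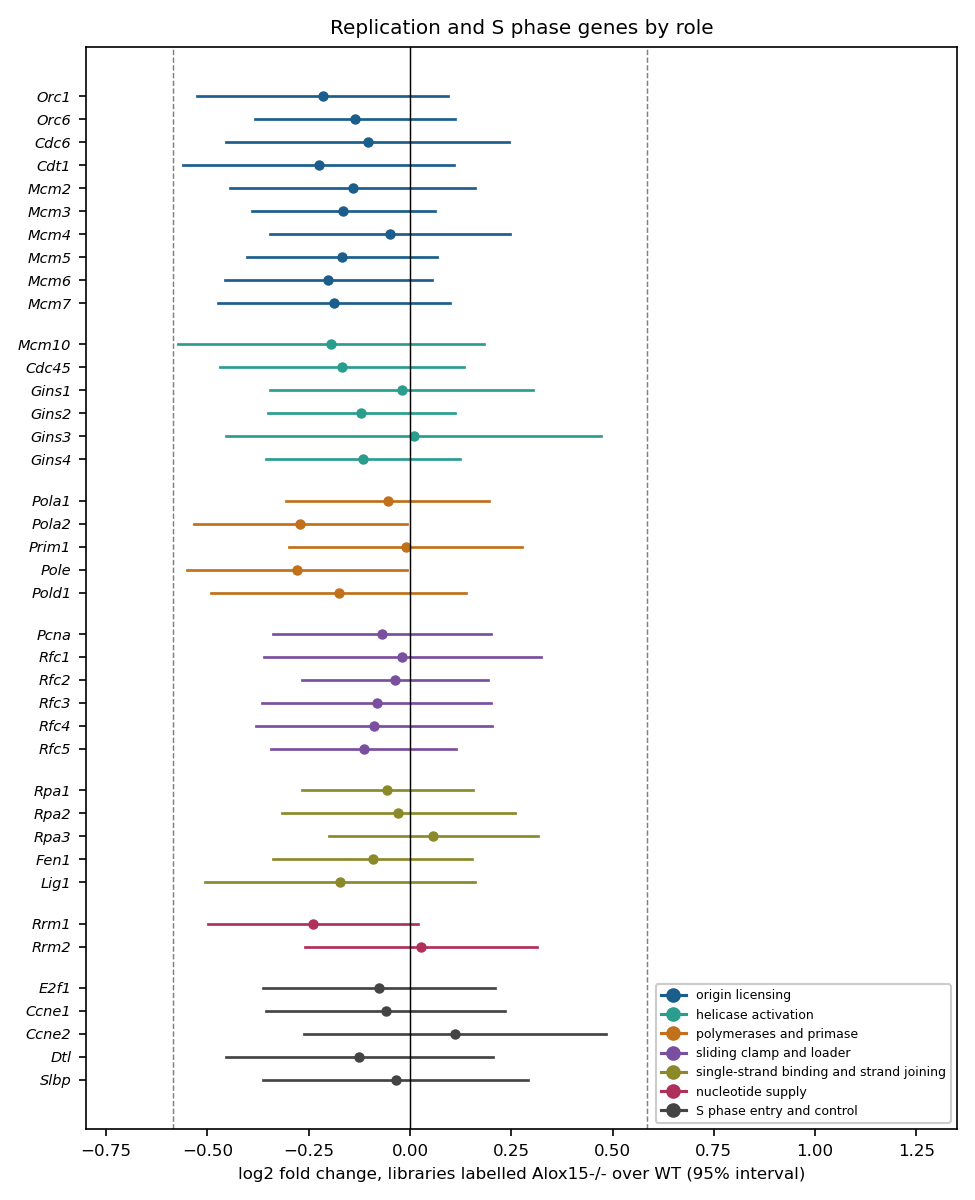
Log2 fold change of each of the 39 genes in the libraries labelled Alox15-/- over WT (points) with 95% intervals from edgeR's quasi-likelihood fit (lines), grouped and coloured by role. The dashed lines mark 1.5-fold in either direction, within which all 39 intervals lie, and the intervals of Pole and Pola2 alone lie wholly below 0.

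Origin licensing genes were all fitted below 0, with a median log2 fold change of -0.17 over 10 genes and 0 passing either threshold, beside 51.8% of all genes tested below 0. Without WT replicate 3 the median was -0.082, and Cdc6, Mcm2 and Mcm4 turned above 0. Mcm6, a subunit of the helicase that unwinds DNA at the fork (chromosome 1, 128331590 to 128359664, minus strand), was at 318, 424, 376 and 344 CPM in the libraries labelled Alox15-/- and at 407, 434, 493 and 345 CPM in WT. Its highest library was WT replicate 3 and its lowest was Alox15-/- replicate 1, and the groups overlapped. The log2 fold change of Mcm6 was -0.20 (SE 0.120, 95% interval -0.46 to 0.055, edgeR adjusted p = 0.75), and it was -0.11 without WT replicate 3. The other subunits of the ring were read in the same way. Mcm7 was at 210.5, 265, 242 and 209.9 CPM against 257, 295, 307 and 195 CPM. Mcm5 was at 312, 389.5, 384 and 334 CPM against 372, 412, 459.6 and 350.1 CPM. For both, WT replicate 3 was the highest library, and the groups overlapped. Mcm3 was at 202, 234, 223 and 212 CPM against 228, 251, 285 and 213 CPM. Mcm2 was at 148, 165, 156 and 145 CPM against 155, 184, 215 and 121 CPM. Mcm4 was at 219, 251, 183 and 170.4 CPM against 216, 236, 234 and 163 CPM. Mcm4 was the only one of these whose highest library was labelled Alox15-/- (replicate 2). The fitted log2 fold changes stood at -0.19 for Mcm7, -0.17 for Mcm5, -0.16 for Mcm3, -0.14 for Mcm2 and -0.049 for Mcm4. Without WT replicate 3 they were -0.10 for Mcm7 (-0.30 without WT replicate 4), -0.087 for Mcm5 and -0.076 for Mcm3, Mcm2 turned to 0.0036, and Mcm4 turned above 0 in 4 of 8 fits with 1 library left out, at most to 0.034. Summed over Mcm2 to Mcm7, the levels were 1529 ± 150.5 CPM under the Alox15-/- label and 1707 ± 259 CPM in WT (SD, n = 4 each), a difference smaller than the SD in WT.

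Cdt1, the loader that is destroyed once S phase begins (chromosome 8, 122568015 to 122573554, plus strand), was at 58.4, 93.1, 79.4 and 73.7 CPM in the libraries labelled Alox15-/- and at 75.3, 92.2, 114 and 73.3 CPM in WT. WT replicate 3 was again the highest library and Alox15-/- replicate 1 the lowest. Cdt1 had the lowest value of the licensing group, a log2 fold change of -0.23 (SE 0.157, 95% interval -0.56 to 0.11, edgeR adjusted p = 0.789), which was -0.075 without WT replicate 3 and -0.33 without Alox15-/- replicate 2. Cdc6, the ATPase that brings the helicase to origins, was at 42.0, 51.8, 48.5 and 52.4 CPM against 46.8, 55.3, 69.6 and 36.3 CPM, so that both extremes of the 8 values were in WT. Its log2 fold change was -0.10 and turned to 0.079 without WT replicate 3. Orc1, the largest subunit of the origin recognition complex, was at 20.7, 19.4, 18.2 and 17.5 CPM against 19.03, 21.3, 26.2 and 20.7 CPM (log2 fold change -0.22, edgeR adjusted p = 0.782), and Orc6 was fitted at -0.13. WT replicate 3 was the highest library for Orc1, and the values of Orc1 and Orc6 without it were not read.

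Helicase activation genes spanned log2 fold changes from -0.20 to 0.0093 over 6 genes. Mcm10, a factor that helps start the assembled helicase (chromosome 2, 4989714 to 5012791, minus strand), was at 34.8, 46.4, 42.5 and 43.5 CPM in the libraries labelled Alox15-/- and at 44.6, 48.1, 65.6 and 31.5 CPM in WT. Both the highest and the lowest library were in WT, and the log2 fold change of -0.20 (SE 0.177, edgeR adjusted p = 0.846) turned to 0.013 without WT replicate 3. Cdc45, which travels with the helicase, was at 46.1, 48.6, 47.4 and 48.5 CPM against 51.9, 56.7, 65.9 and 38.2 CPM (log2 fold change -0.17, edgeR adjusted p = 0.838). Both extremes were again in WT, and its value without WT replicate 3, the highest library, was not read. Of the GINS subunits, Gins2 (-0.12) and Gins4 (-0.12) were fitted below 0, and Gins1 (-0.021) and Gins3 (0.009) lay near it.

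Polymerase genes held the 2 lowest values of the list. Pole, the catalytic subunit of the leading-strand polymerase (chromosome 5, 110286306 to 110337474, plus strand), was at 75.4, 71.0, 73.6 and 79.6 CPM in the libraries labelled Alox15-/- and at 84.1, 91.6, 114 and 72.9 CPM in WT. WT replicates 1 to 3 lay above every library labelled Alox15-/-, whereas WT replicate 4 lay below 3 of them. The log2 fold change of Pole was -0.28 (SE 0.127, 95% interval -0.55 to -0.0075), with an unadjusted p of 0.0447 and an edgeR adjusted p of 0.623, and the two-sided exact permutation test over libraries gave p = 0.114, where 0.0286 is the smallest that 4 libraries against 4 allow.

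Pola2, the regulatory subunit of the polymerase that lays down primers with primase (chromosome 19, 5940542 to 5964202, minus strand), was at 43.2, 48.1, 43.8 and 45.2 CPM in the libraries labelled Alox15-/- and at 52.9, 50.03, 66.8 and 46.8 CPM in WT. All libraries but 1 labelled Alox15-/- lay below every WT library, the exception being replicate 2. Its log2 fold change was -0.27 (SE 0.123, 95% interval -0.53 to -0.0086), with an unadjusted p of 0.0438, an edgeR adjusted p of 0.622 and an exact permutation p of 0.0571. Without WT replicate 3 the values of Pole and Pola2 were -0.14 and -0.14. Of the same enzyme as Pola2, the catalytic subunit Pola1 was fitted at -0.055 and the primase subunit Prim1 at -0.011. Pold1, the catalytic subunit of the lagging-strand polymerase, was fitted at -0.18. Its highest library was WT replicate 3, at 202 CPM, and its value without that library was not read. Differences between these genes were not tested.

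Pcna, the sliding clamp that tethers polymerases to DNA (chromosome 2, 132249162 to 132253314, minus strand), was at 504, 606, 582 and 606 CPM in the libraries labelled Alox15-/- and at 604, 677, 683 and 446 CPM in WT. The libraries labelled Alox15-/- lay inside the WT range, above WT replicate 4 and below WT replicates 2 and 3. Its log2 fold change was -0.069 (SE 0.126, 95% interval -0.34 to 0.20, edgeR adjusted p = 0.934) and turned to 0.0021 without WT replicate 3. The processed pseudogene Pcna-ps2 was listed separately, at 327 ± 19.9 CPM (SD, n = 4) against 330.2 ± 51.7 CPM, so reads of Pcna may have been split between the copies. The subunits of the clamp loader ranged from -0.11 for Rfc5 to -0.018 for Rfc1, and Rfc5 was at 67.3, 78.8, 87.9 and 70.3 CPM against 78.1, 85.6, 84.7 and 80.8 CPM. The value of Rfc5 was -0.060 without Alox15-/- replicate 1 and -0.19 without Alox15-/- replicate 3.

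Genes for single-strand binding and strand joining ranged from -0.17 for Lig1, the ligase that seals Okazaki fragments, to 0.057 for Rpa3, a small subunit of the single-strand binding complex. Lig1 was at 138, 194, 155 and 146 CPM in the libraries labelled Alox15-/- and at 178, 181, 228 and 125 CPM in WT, with both extremes in WT. The log2 fold change of Lig1 had a standard error of 0.156 and an edgeR adjusted p of 0.845, and it was -0.026 without WT replicate 3 and -0.30 without WT replicate 4. Fen1, the flap nuclease, was fitted at -0.092, Rpa2 at -0.029 and Rpa1 at -0.056. Rpa1 is the only gene of the list within 20 Mb of Alox15, at 4.95 Mb on chromosome 11.

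Rrm1 and Rrm2 encode the large and small subunits of ribonucleotide reductase, which makes deoxynucleotides. Rrm1 (chromosome 7, 102441695 to 102469771, plus strand) was at 305.1, 404, 356 and 318 CPM in the libraries labelled Alox15-/- and at 378, 439.6, 474 and 339.7 CPM in WT. Rrm2 (chromosome 12, 24708241 to 24714146, plus strand) was at 298, 380.4, 330.2 and 295 CPM against 308, 370.3, 361 and 238 CPM. The highest library for Rrm1 was WT replicate 3, and for Rrm2 it was Alox15-/- replicate 2. The log2 fold change was -0.24 for Rrm1 (SE 0.121, 95% interval -0.50 to 0.019, edgeR adjusted p = 0.685) and 0.027 for Rrm2 (SE 0.134, 95% interval -0.26 to 0.31, edgeR adjusted p = 0.981), with overlapping intervals. Rrm1 was at -0.15 without WT replicate 3. Rrm2 turned to -0.085 without WT replicate 4 and to -0.0534 without Alox15-/- replicate 2. Whether the subunits differed from each other was not tested.

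Among the genes of S phase entry and control, E2f1, an E2F factor and itself a target of the family, was at 39.9, 49.7, 41.8 and 44.1 CPM in the libraries labelled Alox15-/- and at 41.2, 49.2, 55.7 and 37.6 CPM in WT (log2 fold change -0.076, SE 0.135, edgeR adjusted p = 0.931). The cyclin E genes, which drive the start of S phase, lay on either side of 0. Ccne1 was at 38.2, 55.1, 49.3 and 48.4 CPM against 43.8, 50.2, 60.6 and 43.4 CPM, a log2 fold change of -0.060, and without WT replicate 3 its value was 0.062 and that of E2f1 0.039. Ccne2 was at 24.5, 28.1, 31.8 and 28.5 CPM against 27.6, 29.2, 30.7 and 16.3 CPM, and its log2 fold change of 0.11 (95% interval -0.26 to 0.48, edgeR adjusted p = 0.92) was the highest of the 39, though it turned to -0.042 without WT replicate 4. Dtl, which marks Cdt1 for destruction, was at 63.4, 98.5, 67.5 and 66.3 CPM against 85.3, 81.1, 93.0 and 60.5 CPM, the highest being Alox15-/- replicate 2 and the lowest WT replicate 4. It was fitted at -0.12 (-0.039 without WT replicate 3 and -0.29 without Alox15-/- replicate 2) and Slbp, which binds histone mRNA, at -0.036.

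**Figure D3:**
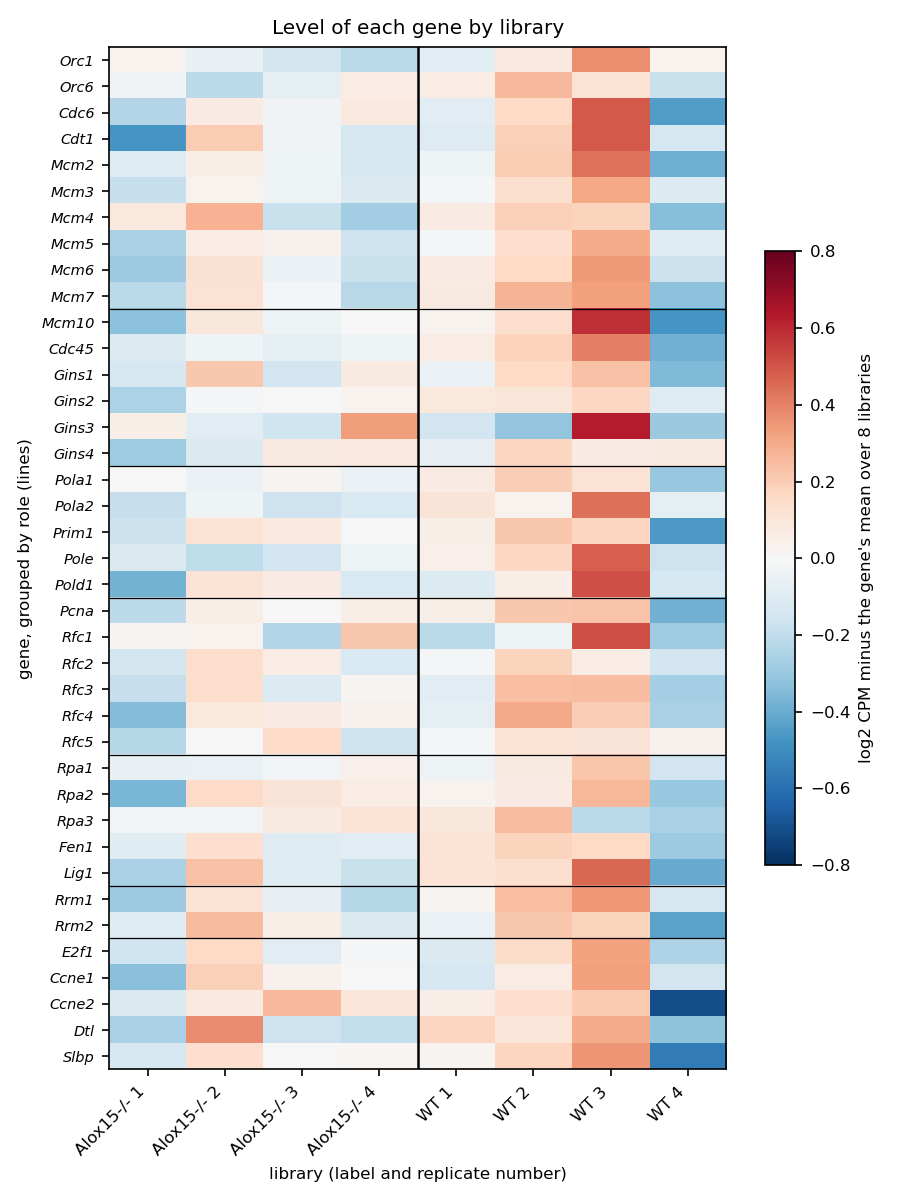
Log2 CPM of each of the 39 genes (rows, grouped by role) in each of the 8 libraries (columns), as the difference from the mean of the gene over all libraries (red above, blue below). WT replicate 3 is red in 38 rows and WT replicate 4 is blue in 36, and Alox15-/- replicate 1 is blue in 35.

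Differences between libraries of one label exceeded the difference between the labels. The mean log2(CPM + 1) over the 39 genes was 6.35, 6.59, 6.49 and 6.48 in the libraries labelled Alox15-/- and 6.52, 6.66, 6.81 and 6.27 in WT. All 4 libraries labelled Alox15-/- therefore lay inside the WT range, and the difference of the group means was -0.087 beside an SD of 0.101 in the libraries labelled Alox15-/- and 0.232 in WT. WT replicate 3 was the highest of the 8 libraries for 26 of the 39 genes (66.7%), against 17.5% of all genes tested, and WT replicate 4 was the lowest for 22 (56.4%), against 16.6%. Between these 2 WT libraries the median fold over the 39 genes was 1.47, with 38 of 39 higher in replicate 3, while the median log2 difference over all genes tested was 0.0036 and 50.5% were higher. The G2/M genes showed a wider gap between the same libraries, with a median fold of 2.05 and 30 of 30 higher in replicate 3, so the pattern was present in both lists. Among the 39 genes the smallest difference was in Gins4 (-0.00704 on the log2(CPM + 1) scale) and the largest in Mcm10 (1.03). Within the libraries labelled Alox15-/-, replicate 1 was the lowest of all 8 libraries for 13 genes (33.3%, against 11.6% of all genes tested). WT replicate 3 was also the deepest library, at 9538962 counts, and WT replicate 4 the shallowest of its label, at 4810125. Alox15-/- replicate 2, the shallowest of all at 3723151, had the highest mean of its label. The part of depth in these values was not tested. Within WT the SD of log2(CPM + 1) was wider than within the libraries labelled Alox15-/- for 32 of the 39 genes (82.1%), against 52.8% of all genes tested, with medians over the 39 genes of 0.251 and 0.148.

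The other genes of the pathway were read from lists of 55 further replication and S phase genes, 31 G1/S control genes and 30 G2/M genes. All 55 further replication genes were tested and 0 passed the adjusted threshold of edgeR. Their median log2 fold change was -0.10, and 39 of 55 were below 0, against 51.8% of all genes tested. Their mean log2(CPM + 1) was 5.69, 5.90, 5.70 and 5.75 under the Alox15-/- label. In WT it was 5.76, 5.90, 6.06 and 5.53, so both extremes were in WT. The median and the count below 0 were not read from the fit without WT replicate 3, the highest of these. At an unadjusted p under 0.05 there was 1 of the 55 genes, against 7.84% of all genes tested. This was Samhd1, which breaks down deoxynucleotides and is also known as an interferon-induced gene, at 243, 243, 192 and 209 CPM in the libraries labelled Alox15-/- and at 168, 162, 181 and 147 CPM in WT. The groups did not overlap, with all libraries labelled Alox15-/- above WT. Its log2 fold change of 0.43 (SE 0.107, 95% interval 0.20 to 0.66) had an edgeR adjusted p of 0.0838, and DESeq2 called it with an adjusted p of 0.0161. Prim2 (-0.22), Rad54l (-0.31) and Pole2 (-0.38) had edgeR adjusted p of 0.698, 0.706 and 0.83. Rad54l was at -0.17 without WT replicate 3 and Pole2 at -0.21 without Alox15-/- replicate 1.

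Of the G1/S control genes, 27 passed the expression filter (Ccnd1, Cdkn1c, Cdkn2a and Cdkn2b did not), and 0 passed the adjusted threshold in edgeR's quasi-likelihood test, DESeq2 or limma-voom. At an unadjusted p under 0.05 there were 2 of 27, near the share of 7.84% of all genes tested. Cdc25a, the phosphatase that activates cyclin-dependent kinases at S phase entry, was at 52.1, 58.0, 57.8 and 51.5 CPM in the libraries labelled Alox15-/- and at 65.7, 68.2, 78.3 and 58.5 CPM in WT, without overlap. The fitted change of Cdc25a was -0.31 on the log2 scale (SE 0.112), with an edgeR adjusted p of 0.43. Cdkn1b, the inhibitor p27, was at 58.9, 67.2, 72.6 and 86.6 CPM against 51.3, 53.5, 68.4 and 39.0 CPM, with 2 libraries labelled Alox15-/- below WT replicate 3. For Cdkn1b the log2 fold change was 0.42 (SE 0.157), with an edgeR adjusted p of 0.458. Cdkn2c had the lowest value of this list, -0.36 (edgeR adjusted p = 0.696).

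**Figure D4:**
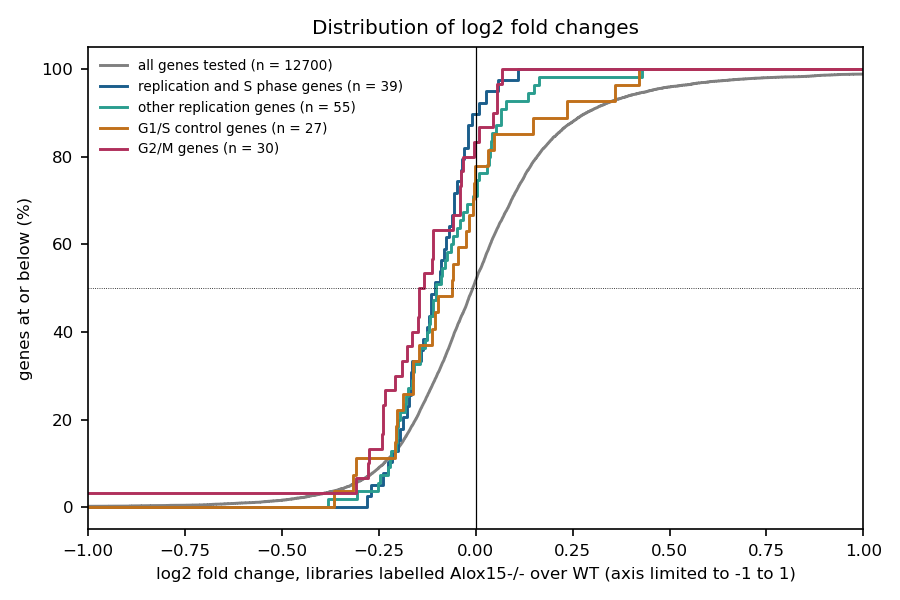
Cumulative share of genes (%) by log2 fold change in the libraries labelled Alox15-/- over WT, for all 12700 tested genes, the 39 replication and S phase genes and the 3 further lists. The axis ends at -1 and 1, so Mki67 (-1.69) lies beyond it. The 4 lists cross 50% to the left of all genes, at medians from -0.14 to -0.061, and their curves are steeper than that of all genes. Without WT replicate 3 the median of the 39 genes was -0.019 (not plotted), and those of the further lists were not read from that fit.

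Of the 30 G2/M genes 1 passed the adjusted threshold, as lower, beside 1.24% of all genes tested (0.197% lower). The median log2 fold change of the list was -0.14, and 25 of 30 were below 0, against 51.8% of all genes tested. WT libraries stood apart in this list too, replicate 3 being the highest of the 8 libraries for 28 of 30 genes and replicate 4 the lowest for 23. The gene that passed was Mki67, the source of the Ki-67 antigen used to mark cycling cells (chromosome 7, 135689784 to 135716361, minus strand). It was at 19.7, 23.5, 31.6 and 41.2 CPM in the libraries labelled Alox15-/- and at 56.8, 75.5, 193 and 50.9 CPM in WT. Every library labelled Alox15-/- lay below every WT library, and WT replicate 3 was far above the others. The log2 fold change of Mki67 was -1.69 (SE 0.359, 95% interval -2.45 to -0.92, edgeR adjusted p = 0.027), and it was -1.04 without WT replicate 3. Of the 8 fits with 1 library left out, 5 called Mki67 (those without Alox15-/- replicates 1, 2 and 3 did not, with adjusted p from 0.113 to 0.127), and neither DESeq2 (adjusted p = 0.0545), limma-voom (adjusted p = 0.0860) nor edgeR's robust fit (adjusted p = 0.476) called it. The interval of Mki67 lay below the intervals of all 39 replication and S phase genes, the lowest of which began at -0.57. Whether Mki67 differed from them was not tested in a model of its own. Top2a (-0.21), Ccna2 (-0.15), Ccnb1 (-0.040) and Cdk1 (0.054), named here after their values were seen, did not pass. WT replicate 3 was the highest library for each, at 577, 291, 114 and 122 CPM, and their values without it were not read. The highest value of the G2/M list was that of Cks2, 0.067, which turned to -0.0019, -0.035 and -0.019 without Alox15-/- replicate 3, Alox15-/- replicate 4 and WT replicate 4.

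**Figure D5:**
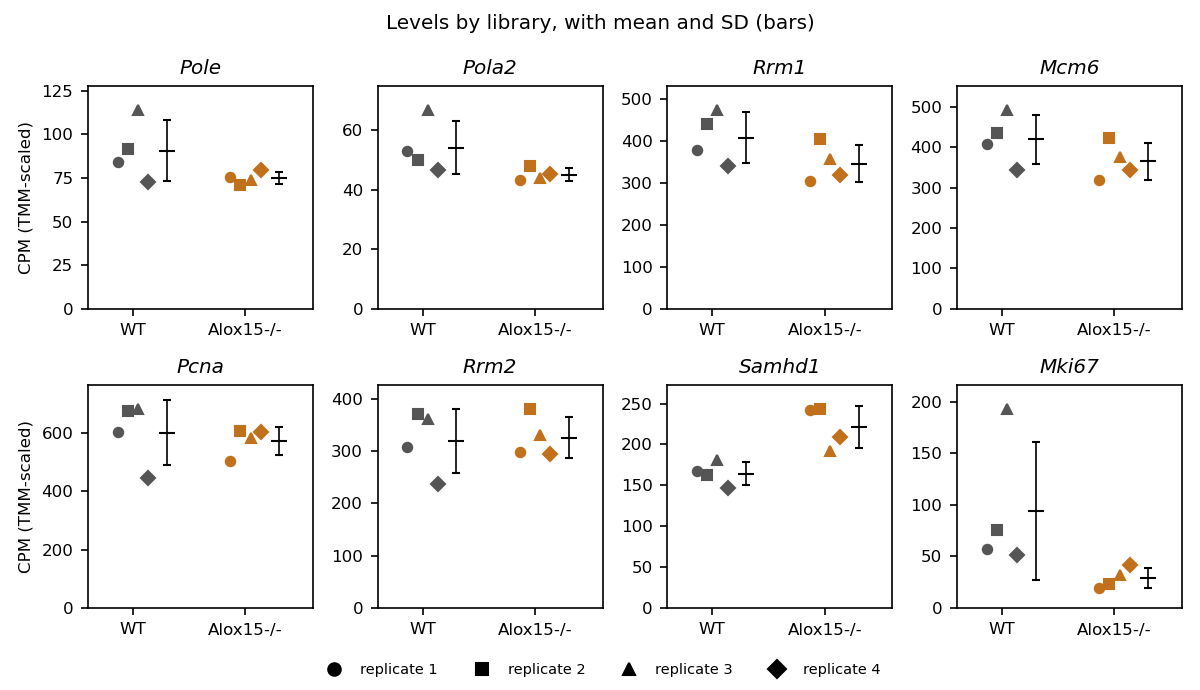
TMM-scaled CPM of 8 genes in each of the 4 WT libraries (grey) and the 4 libraries labelled Alox15-/- (orange), with symbols for replicate numbers and bars for the mean and SD (n = 4). The groups overlap for Pole, Pola2, Rrm1, Mcm6, Pcna and Rrm2 and do not overlap for Samhd1 and Mki67.

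The counting leaves limits for some of these genes. By GENCODE, 11 of the 39 overlap another tested gene, namely Ccne2, Cdc45, Cdt1, Fen1, Gins2, Mcm7, Orc1, Orc6, Pola1, Rfc4 and Rfc5, and whether the counting used strand was not given in the sources used here, so reads of such pairs cannot be told apart.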

How the data were processed

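The deposited values are unnormalized read counts by gene symbol for 8 libraries, one for each of 4 mice labelled Alox15-/- and 4 labelled WT. Reads had been cleaned and trimmed per the labels, and the submitters' processing notes name Bowtie, edgeR and the build GRCm38. The counting tool, strand setting and removal of duplicates were not given in the sources used here. The labels name a small RNA kit, the methods a MACE-Seq kit. Of 28239 rows, 12700 had at least 2 CPM (count over column total) in at least 4 libraries and were tested with edgeR 4.0.16 in R 4.3.3, with Benjamini–Hochberg adjustment over all genes tested at 0.05. The filter, edgeR and the adjustment follow the study's methods. TMM scaling, the two-sided quasi-likelihood test and group as the only term were chosen here. The biological coefficient of variation was 14.5%. Totals of 3723151 to 9538962 counts put at least 52 counts on each listed gene in each library. The p-values set the difference between groups against the spread between libraries, in which mouse, culture and library are not separated. Printed levels are TMM-scaled CPM. SE is the log2 fold change divided by the square root of F.

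The members and lists were chosen with earlier results of these data known. Named are Alox15, listed genes with an unadjusted p under 0.05 or an adjusted p under 0.05 under any alternative with all libraries, the largest change in each role group, a fixed core (Mcm2 to Mcm7, Pcna, Rrm1, Rrm2, Cdc6, Cdt1, E2f1, Ccne1, Ccne2) and, from the further lists, genes past the adjusted threshold or otherwise the 3 smallest p, with the largest rise and fall. Other members, given mostly by their fitted value, and Top2a, Ccna2, Ccnb1 and Cdk1 were added after their values were seen. Marker sums add the CPM of a list. Positions came from GENCODE M21 (GRCm38) and promoters from RefSeq (GRCm38.p6). The fit was tested on simulated data. Alternatives were other scalings, filters and tests (DESeq2 1.42.0, limma 3.58.1), the replicate number as a block, and each library left out in turn.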

Additional observations from a re-analysis of the deposited data

Results flagged for a closer look

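Values in which 1 library stood far from the other 3 of its label were sought with Dixon's criterion at the 95% level (the gap to the nearest library over the range), in 136 groups of 4. Of these, 8 were marked, and chance marks about 1 in 20. Gins2 was low in Alox15-/- replicate 1, at 46.4 CPM with the others up to 56.4 CPM. Gins3 was high in WT replicate 3, at 23.0 CPM with the others from 11.9 CPM. Rfc4 was low in Alox15-/- replicate 1, at 53.6 CPM with the others up to 72.3 CPM. Fen1 was high in Alox15-/- replicate 2, at 176 CPM with the others from 149 CPM, and low in WT replicate 4, at 131 CPM with the others up to 181 CPM. Dtl was high in Alox15-/- replicate 2, at 98.5 CPM with the others from 63.4 CPM. Of the marker sums, that of CD8 T cells was low in WT replicate 2, at 21.3 CPM, and that of B cells in Alox15-/- replicate 1, at 5.53 CPM.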

How the results depend on the processing

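The count of 0 of 39 replication and S phase genes past the adjusted threshold, in either direction, held under all 20 alternatives. At an unadjusted p under 0.05 the count of 2 moved to 0 with upper quartile scaling, the exact test, DESeq2 and the replicate number as a block, to 1 with the likelihood-ratio test and limma-voom, to 5 with no filter, and to 0 to 9 with 1 library left out, where 9 came without WT replicate 4. The counts of genes fitted below 0 and of intervals within 1.5-fold and 2-fold were added after seeing the data. Those below 0 numbered 22 to 39 with 1 library left out and 31 to 36 otherwise. Intervals within 1.5-fold numbered 34 to 39 over the quasi-likelihood fits. The median ranged from -0.18 to -0.019 with 1 library left out and from -0.13 to -0.075 otherwise. Among further replication genes 1 was called with no filter, the likelihood-ratio test, the exact test or DESeq2, in place of 0. Among G2/M genes 0 were called with DESeq2, limma-voom or the robust test, and 0 to 1 with 1 library left out. Over all genes the count of 158 moved to 388 with no filter, to 100 with at least 10 counts in every library, and to 86 to 173 with 1 library left out. With the bases before the start only, 9 of the 32 genes with a promoter held an E2F match, in place of 13, and CHR matches in G2/M genes fell to 8 of 26, in place of 18. Of the genes chosen for full values, those whose sign turned in fits that left out 1 library were Ccne1 (-0.13 to 0.062), Rrm2 (-0.085 to 0.11), Mcm4 (-0.16 to 0.034), Cks2 (-0.035 to 0.17), Cdc6 (-0.23 to 0.079), Mcm2 (-0.26 to 0.0036), Mcm10 (-0.34 to 0.013), Pcna (-0.18 to 0.0021), E2f1 (-0.15 to 0.039) and Ccne2 (-0.042 to 0.21). Depth and 4 libraries a label limit what smaller changes could be seen. The cause was not tested.

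Libraries with the same replicate number share only a number: the correlations of their deviations from the group means over all genes were 0.069, 0.17, -0.18 and -0.018 for numbers 1 to 4, and Alox15-/- replicate 1 correlated best with WT replicate 4 (0.14). With the number as a block, 0 of 39 genes passed the adjusted threshold.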
